A study of Mus musculus with 4 samples.

Results

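Injured proximal tubule cells were compared between day 30 and day 7 after ischemia-reperfusion injury of the mouse kidney. A cell was taken as injured proximal tubule when it had at least 500 UMIs (unique molecular identifiers, each counting 1 captured transcript), at least 300 genes and at most 50% mitochondrial UMIs, and, per 10000 UMIs, at least 5 of Gc, Slc13a1, Lrp2 and Cubn together, at least 3 of Havcr1 and Vcam1 together and under 20 of Tyrobp, Fcer1g and Ctss together. The rule found 539 cells at day 7 and 431 at day 30, which is 970 of the 27230 barcodes of the series. The series held 4 single-cell RNA libraries, all from kidneys of BAC-CluGFP mice, whose green fluorescent reporter stands under the control of the clusterin gene (Clu) on a bacterial artificial chromosome. The libraries came from untreated kidney and from kidney at days 2, 7 and 30 after 35 min of ischemia-reperfusion, and each was made from GFP-positive cells collected by flow sorting and captured with 10x 3′ chemistry v3.1. The labels name neither strain nor age nor the number of animals behind a library, all groups carried the reporter, and untreated kidney is the uninjured group used here. Cells without the reporter signal were not seen, whatever their injury.

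The proximal tubule reabsorbs most of the filtered sugar, amino acids, phosphate and protein, and its late, straight segment is the part most exposed to ischemia. Injured cells lose their transporters and switch on Havcr1 (KIM-1, a phosphatidylserine receptor of acutely injured tubule), Spp1 (osteopontin) and Sox9 (a transcription factor of tubular regeneration). Cells that do not complete repair are commonly described by persistent Vcam1, an adhesion molecule for leukocytes, together with cytokine and matrix genes.

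Each time point was 1 library, so the comparison has no replicate check and no test was made. Time, animal, sort and capture cannot be told apart. Levels are the summed UMIs of a library's cells per 1000000 UMIs (CPM), and a ratio is given with its exact 95% interval for counting error only. A gene was measured when it reached 20 CPM in either library and 20 UMIs in both together, and it was called higher or lower at a difference of at least 2-fold with an interval excluding 1. The day 30 cells were shallower: the 539 day 7 cells had a median of 25584 UMIs (18390 to 74491) and 5534 genes, and the 431 day 30 cells a median of 12526 UMIs (6017 to 67138) and 3937 genes. The lowest barcode of the whole day 7 library had 18362 UMIs, and 337 of the 431 day 30 cells lay below that floor. Every comparison was therefore also made with the 94 day 30 cells at or above it, called the deep day 30 cells here. Numbers of cells holding a gene are at full depth unless said to be thinned. The summed depth was 14738520 UMIs at day 7, 6148518 at day 30 and 2357177 in the deep cells. Median mitochondrial shares were close, at 4.11% and 4.23%. No member barcode was shared between the libraries. Xist was at 0.182 CPM or less and Ddx3y, on the Y chromosome, between 41.3 and 73.8 CPM in all 4 libraries.

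The cells carried proximal tubule transcripts, some below and some above their level in untreated cells. For context, 3501 proximal tubule cells of the untreated library (the same gates without the Havcr1 and Vcam1 condition) and 27 day 2 cells that passed the full rule are given beside them. Slc34a1, the main phosphate transporter, was at 3139 CPM in the untreated cells and 567.7, 207 and 271 at days 2, 7 and 30. Hnf4a, a transcription factor of proximal tubule identity, was at 159 CPM untreated and 118, 78.8 and 97.1 at days 2, 7 and 30. Both were lowest at day 7, and neither was called between days 7 and 30. Of the gate genes, which were used to choose all these cells, the endocytic receptors Lrp2 and Cubn were at 1097 and 140 CPM untreated, 161 and 39.2 at day 7 and 195 and 26.8 at day 30. Gc, the vitamin D-binding protein, was instead at 7.15, 350 and 354 CPM, and Slc13a1, a sulfate transporter, at 311, 830 and 631. Of the 14 proximal tubule markers, which include the 4 gate genes, all were measured, 1 was called higher (Slc7a13) and none lower. Clu, the reporter gene, was at 71.5 CPM untreated and 493, 546 and 579 at days 2, 7 and 30.

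The gate genes chose the cells, so their values are a description. Cells just inside the injury gate had 3.01 Havcr1 and Vcam1 UMIs per 10000 in both libraries, and those just outside had 2.84 at day 7 and 2.98 at day 30. For the proximal tubule gate the nearest values inside and outside were 5.01 and 4.97 at day 7 and 5.03 and 4.98 at day 30, and for the leukocyte gate 19.6 and 20.7 at day 7 and 17.7 and 20.7 at day 30. The gates kept 27.9% of the day 7 cells that passed the quality limits (95% Clopper-Pearson interval 25.9 to 30.0) and 6.21% at day 30 (5.65 to 6.80). Among cells passing the proximal tubule and leukocyte gates, 88.4% of 610 at day 7 and 62.1% of 694 at day 30 passed the injury gate. These shares are of sorted, GFP-positive cells.

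Vcam1 alone met the injury gate in most cells of both groups, while Havcr1 met it in most day 7 cells and in few day 30 cells. Havcr1 (ENSMUSG00000040405, chr11:46735080-46779578, plus strand, mm10) alone reached the gate value of 3 per 10000 in 442 of 539 cells (82.0%, 78.5 to 85.2) at day 7 and in 51 of 431 (11.8%, 8.94 to 15.3) at day 30. Vcam1 (ENSMUSG00000027962, chr3:116109949-116129688, minus strand) reached it in 467 cells (86.6%, 83.5 to 89.4) and 399 cells (92.6%, 89.7 to 94.9). Both did so in 381 cells at day 7 and 34 at day 30. The summed Havcr1 level was 2.33 CPM in untreated proximal tubule, 469 at day 2, 952 at day 7, 112 at day 30 and 125 in the deep day 30 cells. Vcam1 was at 14.6, 661, 1385, 1435 and 1447 CPM in the same order. Havcr1 was thus highest at day 7, while Vcam1 stood at a like level at days 7 and 30. The plot of the gate genes in each cell shows the day 30 cells lying along the bottom of the Havcr1 axis.

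**Figure D1:**
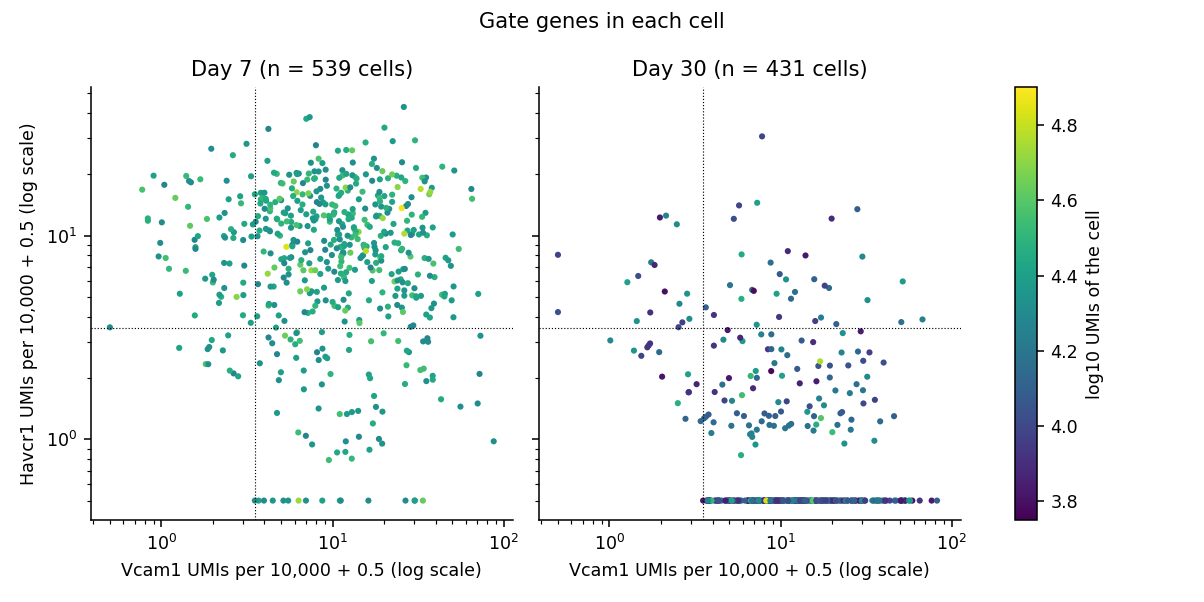
Havcr1 against Vcam1 UMIs per 10000 in each injured proximal tubule cell (log scales, 0.5 added), coloured by the log10 UMIs of the cell. Dotted lines stand at 3 per 10000, and most of the 539 day 7 cells lie in the upper right field while most of the 431 day 30 cells lie in the lower right.

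To set depth aside, each cell was also thinned to 5000 UMIs. Then 82.0% of day 7 cells and 23.2% of day 30 cells held both transcripts, 10.9% and 72.9% held Vcam1 without Havcr1, and 6.49% and 2.32% held Havcr1 without Vcam1. Havcr1 was found in 88.5% of thinned day 7 cells and 25.5% of thinned day 30 cells, against 97.0% and 37.1% without thinning. In macrophage-gated cells of the same libraries, which should lack it, the thinned shares were 11.7% and 2.06% (median depths 22576 and 8848 UMIs). Since Havcr1 helped to choose the injured cells, these shares are set side by side as a description.

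Timd2, a relative of Havcr1 in the TIM receptor family and its neighbour on chromosome 11 (ENSMUSG00000040413, 46668960 to 46707061, minus strand), was also lower at day 30. Its level was 37.5 CPM in untreated proximal tubule, 51.6 at day 2, 92.3 at day 7, 12.5 at day 30 and 16.5 in the deep day 30 cells. The ratio of day 30 to day 7 was 0.136 (0.106 to 0.171), beside 0.118 (0.109 to 0.127) for Havcr1. Unlike Havcr1, Timd2 was also present in untreated cells, and day 30 was below that level. Within cells holding both gate transcripts it was 101 CPM at day 7 and 28.2 at day 30, within cells with Vcam1 only 24.6 and 5.2, and within cells with Havcr1 only (35 and 10 cells) 98.4 and 67.3. Its log2 difference was 0.32 in proximal tubule cells without injury genes, -0.38 in macrophage-gated and -1.71 in the remaining cells, beside -2.18 here. The remaining cells passed the quality limits but were in neither the macrophage gate nor the proximal tubule gates, with or without injury genes.

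Over all 6853 measured genes, 197 (2.87%) were called higher and 57 (0.832%) lower at day 30. The median log2 difference of all measured genes was 0.00. These shares are the background for the counts of called list members below. With the deep day 30 cells alone, 235 of 6902 genes (3.4%) were called higher and 69 (1%) lower. Of the genes measured in both, 166 (2.46%) were called higher and 51 (0.755%) lower in both. The same contrast in other cells of the 2 libraries is given beside genes below where it bears on them: 148 of 6230 genes were called higher and 118 lower in macrophage-gated cells, and 222 and 152 of 6422 in proximal tubule-gated cells without the injury genes (263 cells at day 30 and 71 at day 7).

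**Figure D2:**
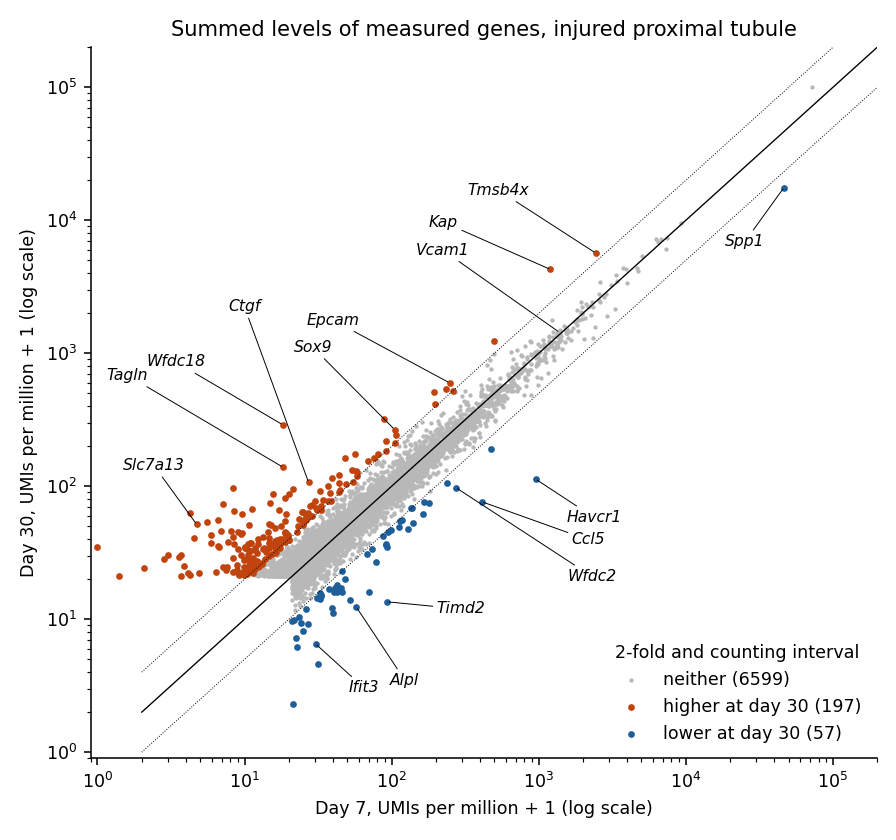
Summed CPM of the 6853 measured genes in injured proximal tubule cells at day 7 and day 30 (log scales, 1 added), with the line of equality and dotted lines at 2-fold. Most genes lie between the dotted lines, Havcr1, Spp1, Timd2 and Ccl5 lie below them and Sox9, Epcam, Tmsb4x and Kap above.

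Among transcription factors of repair and kidney development, 2 of 27 measured genes were called higher and none lower (median log2 difference 0.18, against 0.00 over all measured genes). Sox9 (ENSMUSG00000000567, chr11:112782224-112787760, plus strand) was at 2.33 CPM in untreated proximal tubule, 165 at day 2, 104 at day 7, 266 at day 30 and 299 in the deep day 30 cells. It was at its highest at day 30, 2.56-fold above day 7 (2.39 to 2.75). After thinning, 30.8% of day 7 cells (26.9 to 34.9) and 54.5% of day 30 cells (49.7 to 59.3) held a Sox9 UMI, against 5.40% and 4.53% of macrophage-gated cells. Outside the injured cells its log2 difference was -0.34 in proximal tubule cells without injury genes, 0.02 in macrophage-gated cells and 0.05 in the remaining cells, compared with 1.28 here. Within cells holding both gate transcripts Sox9 was at 105 CPM at day 7 and 212 at day 30, and within cells with Vcam1 only at 119 and 293. Within the 35 and 10 cells with Havcr1 only it went the other way, at 53.9 and 37.4 CPM. Ehf, an epithelial ETS factor, was at 17.7 CPM at day 7 and 53.5 at day 30, a ratio of 3.02 (2.56 to 3.57).

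Epcam, an epithelial adhesion molecule, was called higher, and the keratins Krt8 and Krt18 were not. Epcam was at 59.9 CPM untreated, 175 at day 2, 247 at day 7, 598 at day 30 and 674 in the deep day 30 cells. The day 30 level was 2.42-fold that of day 7 (2.31 to 2.53), while the log2 difference was 0.02 in proximal tubule cells without injury genes, -0.54 in macrophage-gated and -0.38 in the remaining cells. Krt8, a keratin of simple epithelia, was at 86.1, 729, 499, 985 and 1165 CPM in the same order of cell sets. Its ratio of 1.98 (1.91 to 2.04) missed the 2-fold limit, and it was called with the deep day 30 cells. Its partner Krt18 was at 224 CPM at day 7 and 355 at day 30. None of the 5 measured keratins was called over all day 30 cells. Within cells holding both gate transcripts Epcam was at 240 CPM at day 7 and 376 at day 30, and within cells with Vcam1 only at 346 and 692. Krt8 and Krt18 were also higher at day 30 in these subgroups. Within the 35 and 10 cells with Havcr1 only, Epcam was at 179.3 and 179.5 CPM. Krt8 and Krt18 were lower at day 30 there, at 445.6 and 359 CPM and at 217.6 and 142.1.

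Cytoskeleton genes showed a subset of higher members: 6 of 48 measured actin and contractile genes were called higher and none lower (median 0.14). Tmsb4x, thymosin beta-4, which binds actin monomers, was at 348 CPM untreated and 4306, 2440 and 5676 at days 2, 7 and 30. Its ratio was 2.33 (2.29 to 2.36). The log2 difference was 1.21 here and 1.26 in proximal tubule cells without injury genes, 0.09 in macrophage-gated and 0.57 in the remaining cells. Tagln and Acta2, contractile proteins of smooth muscle, were at 17.3 and 8.62 CPM at day 7 and at 138 and 61.2 at day 30. Their UMIs were concentrated, with the 10 highest day 30 cells holding 57.0% and 51.3%. Tagln and Acta2 are themselves members of the pericyte and smooth muscle list, so its counts and sum are not separate from theirs. All 3 measured of 11 listed were called higher, the lowest at a log2 difference of 0.79. The list summed to 53.0 CPM at day 7 and 260 at day 30, Tagln and Acta2 included. In the remaining cells of the 2 libraries Tagln was at 284 and 1081 CPM. Myh11, Cnn1 and Notch3 stayed below 2 CPM in both groups. The part of smooth muscle cells in the Tagln and Acta2 values was not tested.

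**Figure D3:**
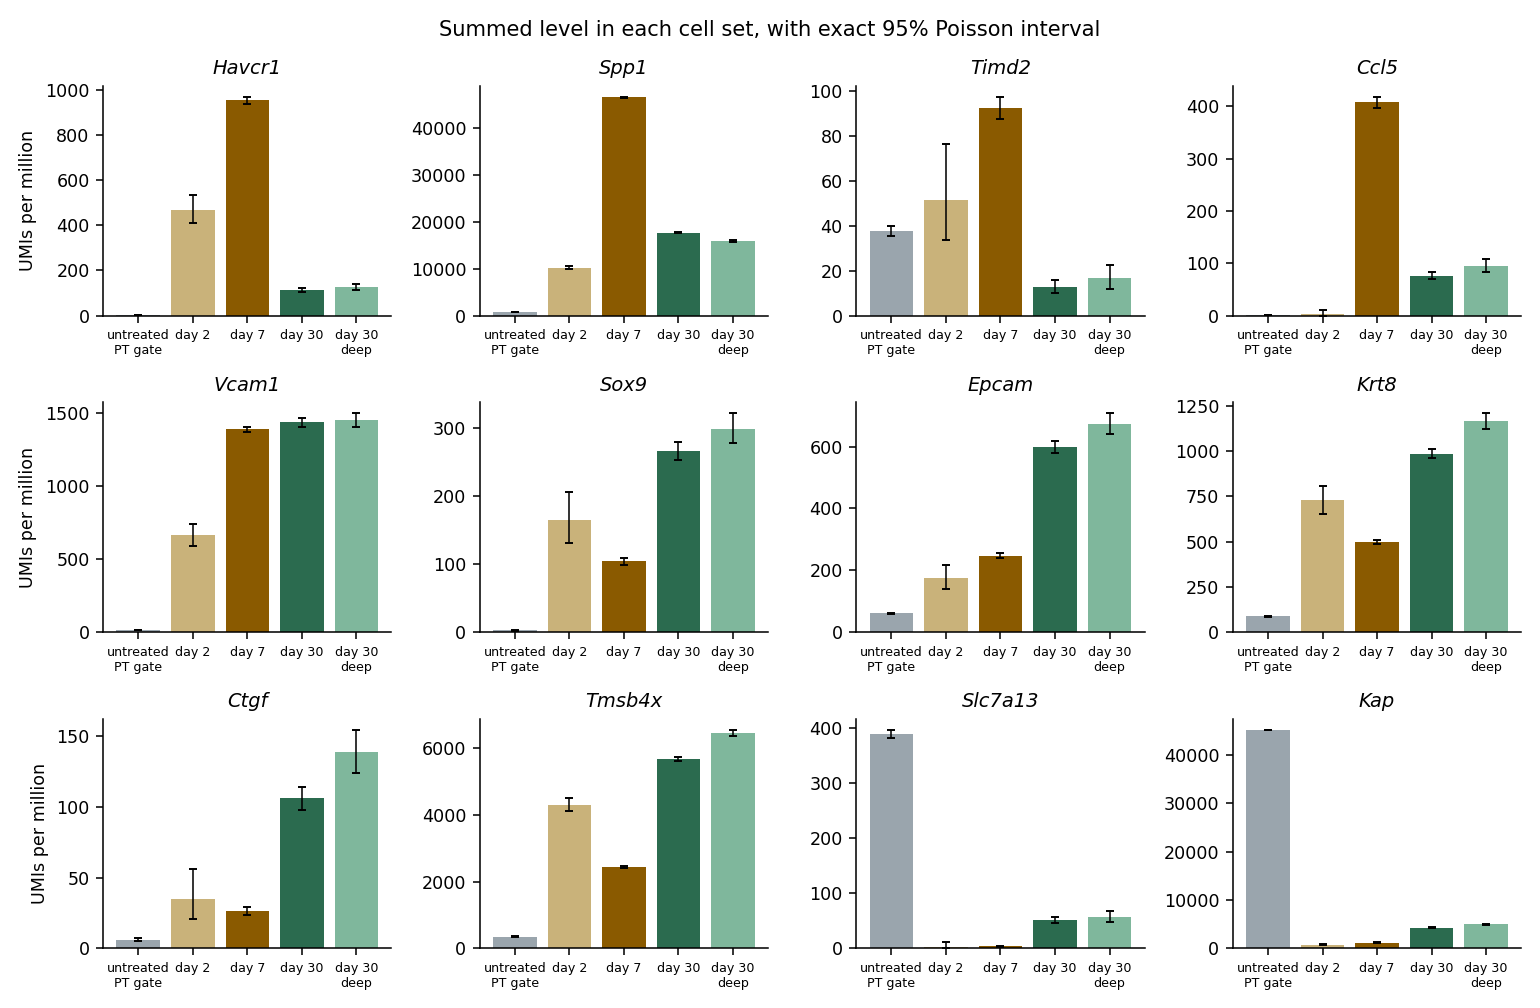
Summed CPM of 12 genes in untreated proximal tubule cells, in injured proximal tubule cells at days 2, 7 and 30, and in the deep day 30 cells, with exact 95% Poisson intervals. Havcr1, Spp1, Timd2 and Ccl5 peak at day 7, whereas Sox9, Epcam, Krt8, Ctgf and Tmsb4x have their highest bars at day 30 and Slc7a13 and Kap remain far below untreated.

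Matrix, growth factor and mechanical response genes included further higher members. Of 36 measured matrix and protease genes, 7 were called higher and 2 lower. Of 22 YAP and TAZ target genes, 2 were called higher and none lower. Of 19 genes of TGF-beta, activin and BMP signalling, 3 were called higher and none lower. Over all measured genes, 2.87% were called higher and 0.832% lower. The medians of these lists were 0.10, 0.07 and 0.07, near that of all measured genes. Ctgf, a secreted matricellular target of YAP, was at 6.11 CPM untreated, 35.1 at day 2, 26.3 at day 7, 106 at day 30 and 139 in the deep day 30 cells, with a ratio of 4.03 (3.55 to 4.58). Its log2 difference of 1.68 compared with 0.40 in proximal tubule cells without injury genes, 0.69 in macrophage-gated and 0.31 in the remaining cells. Tgfb2, a profibrotic TGF-beta ligand, was at 26.9 CPM at day 7 and 69.8 at day 30, and the matrix protease Mmp7, a target of Wnt signalling, at 7.06 and 45.2. With Havcr1 alone as the injury gate the log2 difference of Tgfb2 turned to -0.36. Mmp7 came from few cells, 41 at day 7 and 62 at day 30, the 10 highest of which held 67.3% and 66.2% of its UMIs. Axin2, the feedback target of Wnt/beta-catenin signalling, was at 3.26 and 20.5 CPM and was the only called member of the 10 measured Wnt and Notch genes. In the remaining cells of the 2 libraries the log2 differences were 1.17 for Tgfb2, 2.04 for Mmp7 and 1.39 for Axin2, of the same sign as here and slightly larger for each. Among 21 measured arrest and senescence genes, 2 were called higher, among them Cdkn2a, which encodes p16 and p19ARF and was at 8.14 and 20.8 CPM, in 69 and 48 cells. The call of Cdkn2a was lost under 6 alternative settings, and in cells without leukocyte gate UMIs its log2 difference turned to -0.84.

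Genes of the late proximal segment were higher as a list. Of 11 measured late segment markers, 7 were called higher and none lower, with a median log2 difference of 1.48 (1.26 with the deep day 30 cells). Slc7a13, an aspartate and cystine transporter of the straight segment, was at 390 CPM untreated and 2.06, 3.73 and 50.6 at days 2, 7 and 30, a ratio of 13.6 (10.1 to 18.4). Its UMIs came from 28 cells at day 7 and 81 at day 30. Within cells with Havcr1 only (35 and 10 cells) it was at 20.7 CPM at day 7 and 770.5 at day 30. With both gate transcripts it was at 2.80 and 45.7 CPM, and with Vcam1 only at 0.648 and 26.9. The organic anion transporter Slco1a1 was at 417, 0, 8.62 and 43.8 CPM, and Cyp4b1, a cytochrome P450, at 1200, 388, 47.4 and 162. Kap, the androgen-regulated kidney protein of this segment, was at 45176, 789, 1200 and 4273 CPM. All 4 thus remained below untreated cells at day 30. The 10 highest day 30 cells held 49.8% of the UMIs of Slc7a13, 48.0% of Slco1a1, 20.1% of Cyp4b1 and 35.7% of Kap. At day 7 the 10 highest held 67.3%, 63.8%, 27.1% and 43.4% in the same order. Kap was also higher in cells not gated as proximal tubule. Its log2 difference was 2.12 in macrophage-gated cells and 2.07 in the remaining cells, beside 1.82 here. The thinned share of macrophage-gated cells with a Kap UMI was 21.6% at day 7 and 76.5% at day 30. Among the injured cells that share was 41.9% and 81.0%. For the whole list the median was 0.47 in macrophage-gated cells and 1.51 in proximal tubule cells without injury genes, and 7 of 11 were still called higher after 30% of each library's pooled profile had been subtracted as free RNA. Of 8 measured early segment markers, none was called higher and 1 lower, Gatm, an enzyme of creatine synthesis, at 87.0 and 41.0 CPM.

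Several of the highest ratios came from genes expressed by a minority of the cells. Wfdc18, a secreted WAP-domain protein, was at 0.0740 CPM untreated and 8.26, 17.2 and 289 at days 2, 7 and 30, a ratio of 16.9 (14.8 to 19.3). It was found in 29 cells at day 7, the 10 highest holding 85.4% of its UMIs, and in 113 cells at day 30, the 10 highest holding 51.3%. With Havcr1 alone as the injury gate its log2 difference turned to -1.17, and in the remaining cells it was 1.61, beside 3.46 here. Cyp1b1, a cytochrome P450 induced by the aryl hydrocarbon receptor, was at 6.11 and 72.4 CPM in 40 and 175 cells, with a log2 difference of 2.35 here and 2.24 in the remaining cells. After thinning, 2.04% and 23.7% of injured cells held it, against 0.704% and 7.04% of macrophage-gated cells. Serpina1a, one of the alpha-1-antitrypsin genes, was at 7.40 and 96.0 CPM, but its near-identical copy Serpina1b was at 136 and 261, and the counting could split reads between them. Serpina1a was found in 29 and 89 cells, the 10 highest holding 80.7% and 60.7% of its UMIs. Its log2 difference was 3.88 in proximal tubule cells without injury genes, 0.27 in macrophage-gated and 0.70 in the remaining cells, beside 2.61 here. Gstm1, a glutathione S-transferase, was broadly held, at 192 and 508 CPM in 507 and 401 cells; its paralogs Gstm6 and Gstm7 were at 3.12 and 2.04 CPM at day 7 and 21.3 and 29.4 at day 30.

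Among tubular injury genes, 5 of 45 measured were called higher and 3 lower, with a median of -0.08. Those called higher included Ctgf and Tmsb4x, whose values are given above, and Anxa1 and Tm4sf1. Spp1 (ENSMUSG00000029304, chr5:104435118-104441050, plus strand), the most abundant gene of the list, was at 665 CPM untreated, 10222 at day 2, 46494 at day 7, 17627 at day 30 and 15922 in the deep day 30 cells. The day 30 level was 0.379 of that at day 7 (0.377 to 0.382) and above untreated. Spp1 was lower at day 30 in every other cell set too, with log2 differences of -2.27 in proximal tubule cells without injury genes, -1.21 in macrophage-gated and -1.51 in the remaining cells, beside -1.40 here, and 99.8% and 99.2% of thinned macrophage-gated cells held it. How far free Spp1 RNA enters these levels was not tested. Wfdc2, a secreted protease inhibitor, was at 273 and 96.6 CPM, and Timp1, an inhibitor of matrix proteases, at 77.3 and 26.0. Both were also lower at day 30 in the other cell sets. The log2 differences of Timp1 were -0.68 in proximal tubule cells without injury genes, -1.30 in macrophage-gated and -1.93 in the remaining cells, beside -1.28 here. Those of Wfdc2 were -0.85, -1.02 and -0.45 in the same order, beside -1.41 here. Lcn2 (neutrophil gelatinase-associated lipocalin, an injury marker) was at 263 and 233 CPM and Krt20 at 84.3 and 74.2, neither called. Both had been at 1.41 and 0.666 CPM in untreated cells.

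Genes commonly linked to failed repair stood at day 30 near their day 7 level. Of 43 measured, 3 were called higher and none lower, with a median of 0.04. The chemokine Ccl2 was at 0.222 CPM untreated, 505 at day 7 and 314 at day 30, and the complement component C3 at 9.77, 583 and 558. Dcdc2a, a doublecortin-domain gene, was at 7.85, 308 and 438 CPM, and the macrophage growth factor Il34 at 18.1, 84.3 and 143. All 4 were far above untreated cells at both times, and none was called between them. Of 21 measured NF-kappaB subunit and feedback genes, none was called in either direction (median 0.08).

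The other named genes called lower at day 30 had varied roles. Alpl, tissue non-specific alkaline phosphatase, was at 92.4 CPM untreated and 53.7, 56.5 and 11.4 at days 2, 7 and 30. Cdh13, a GPI-anchored cadherin, was at 30.5 CPM at day 7 in 239 cells and 3.58 at day 30 in 16 cells, a ratio of 0.117 (0.0729 to 0.180). After thinning, 11.9% and 1.86% of injured cells held a Cdh13 UMI, against 1.64% and 0.838% of macrophage-gated cells. Slc40a1, the iron exporter ferroportin, was at 128 and 47.0 CPM, and Acsl4, which loads polyunsaturated fatty acids for membrane lipids, at 117 and 54.3. Cyp4a12b, a fatty acid hydroxylase, was at 20.3 and 1.30 CPM, but its near-identical copy Cyp4a12a was at 13.6 and 6.02, and the counting could split reads between them.

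Ccl5, a T cell and monocyte chemoattractant, was at 1.15 CPM untreated and 2.06, 408 and 75.6 at days 2, 7 and 30, a ratio of 0.185 (0.168 to 0.204). At day 7 it came from 229 cells, of which the 10 highest held 48.2% of the UMIs. In macrophage-gated cells its log2 difference was 0.95, opposite in sign to the -2.29 here, while it was -0.84 in the remaining cells and 0.05 in proximal tubule cells without injury genes. Of 25 measured interferon-stimulated genes, 4 were called lower and none higher (median -0.21): Ifit3, Ifit2, Gbp3 and Irf7, effectors and a regulator of the interferon response. Ifit3 was at 29.4 CPM at day 7 and 5.53 at day 30, and Ifit2 at 47.4 and 19.0. Ifit3 was also lower in the other cell sets. Its log2 difference was -1.58 in proximal tubule cells without injury genes, -1.22 in macrophage-gated and -2.12 in the remaining cells, beside -1.34 here. At day 7 Ifit3 came from 161 injured cells, of which the 10 highest held 45.7% of the UMIs. In cells without leukocyte gate UMIs its log2 difference turned to 0.28. Its near-identical copy Ifit3b was at 15.6 and 4.72 CPM. The list median was -0.04 in macrophage-gated cells.

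Leukocyte transcripts were present in both groups, with a higher sum at day 30. Of 20 macrophage, monocyte or dendritic markers, 14 were measured and 3 called higher, Ctss, Ccr2 and Laptm5. Ctss is 1 of the leukocyte gate genes that chose the cells, so its value is a description. The list summed to 1854 CPM at day 7 and 2312 at day 30, against 47999.7 and 41434.7 CPM in the macrophage-gated cells, and no marker was at 0. Lyz2, lysozyme of myeloid cells, was at 298 and 480 CPM and was not called. Its paralog Lyz1 was called higher, at 3.53 and 39.8 CPM, a ratio of 11.3 (8.34 to 15.5). In macrophage-gated cells Lyz1 was at 110 CPM at day 7 and 1140 at day 30. With 10% free RNA subtracted the log2 difference of Lyz1 turned to -0.15. Of 7 measured MHC class II genes, 2 were called higher and none lower, and of 20 measured class I presentation genes none was called (median -0.01). Among the class II genes, H2-Aa, the alpha chain of I-A, was at 233 and 543 CPM. Its log2 difference of 1.19 compared with 1.37 in macrophage-gated cells and 1.89 in the remaining cells, and after subtraction of 30% free RNA it turned to -2.65. The part of leukocyte RNA in the Lyz1 and class II values was not tested. Markers of fibroblasts did not move together: Col1a1 was at 33.5 and 22.8 CPM and Postn at 4.55 and 52.9. T, NK and B cell markers summed to 1.36 and 5.20 CPM.

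Most metabolic and housekeeping lists showed few calls. None of 74 nuclear subunits of oxidative phosphorylation was called, with a median of -0.18, and none of 13 mitochondrially encoded genes, with a median of 0.10. Of 36 measured genes of fatty acid oxidation, 1 was called higher and 2 lower, of 28 glycolytic and gluconeogenic genes 1 higher, Pck1, the entry enzyme of gluconeogenesis, at 23.8 and 63.6 CPM, and 821 in untreated cells. Cholesterol and lipid genes included 3 higher of 19 measured (median 0.38), among them Idi1, of the isoprenoid pathway, at 16.8 and 49.6 CPM. Of 36 measured antioxidant genes 1 was higher, Gstm1, and of 24 unfolded protein response genes 1 was lower, Nupr1, a stress-induced chromatin protein, at 112 and 48.5 CPM, whose log2 difference turned to 0.12 with a proximal tubule gate of 20. Among the functional and segment lists in the plot of list medians, late segment markers had the highest median in the injured cells. The short marker lists of other cell types are not plotted: with 3 measured genes each, that of pericytes and smooth muscle had a median of 1.93 and that of distal tubule -1.29. Tagln and Acta2 are among the 3 measured pericyte and smooth muscle genes.

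**Figure D4:**
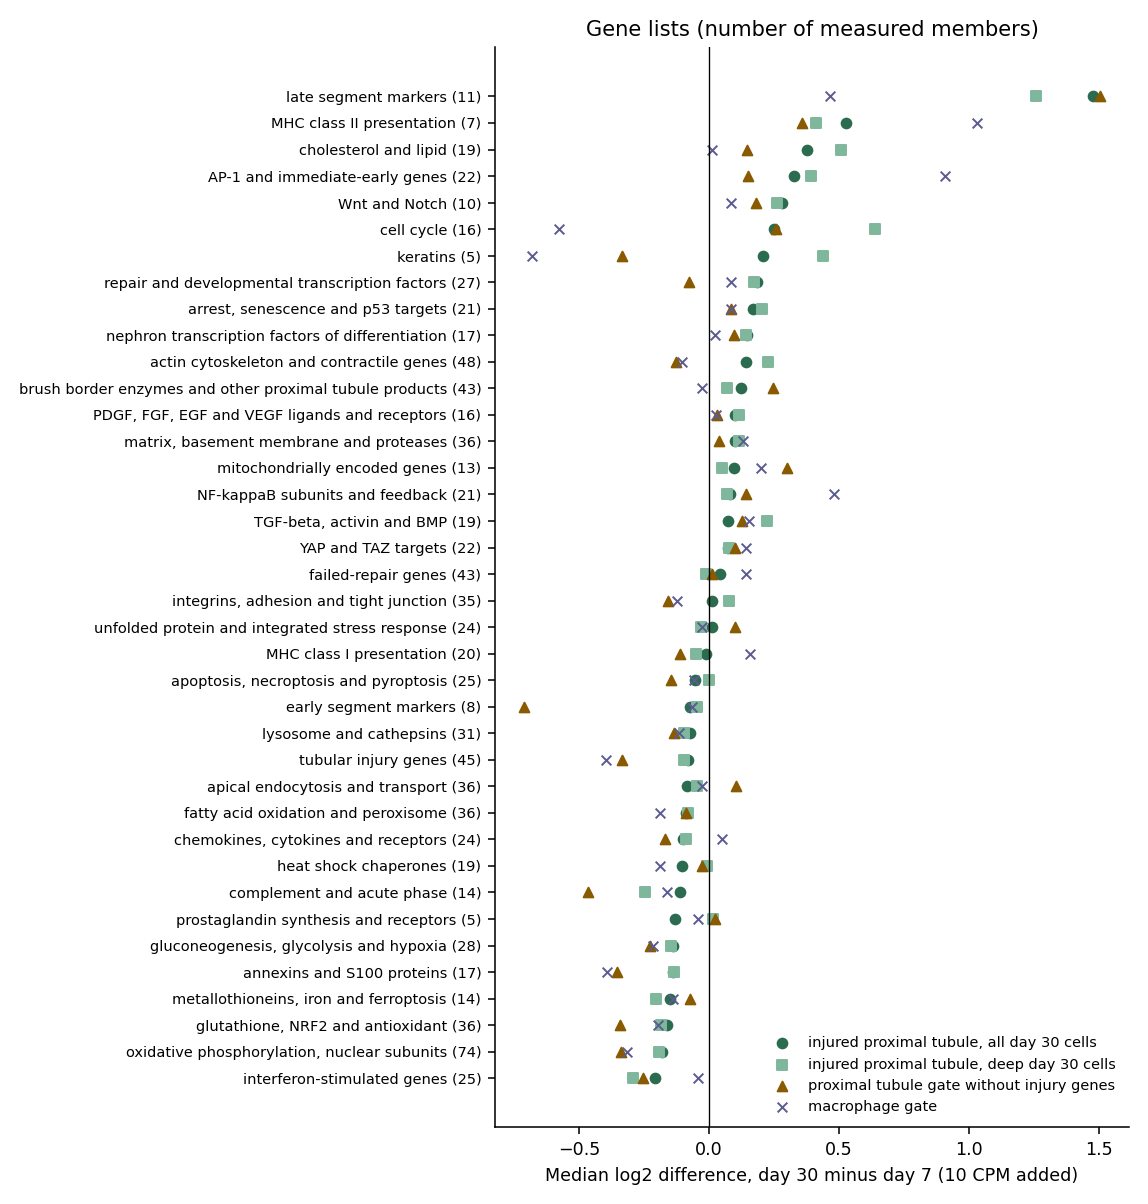
Median log2 difference of each gene list between day 30 and day 7 (10 CPM added), for injured proximal tubule cells with all and with deep day 30 cells, for proximal tubule cells without injury genes and for macrophage-gated cells; the number of measured members stands in brackets. Late segment markers lie at 1.48 in the injured cells, and most other lists lie between -0.21 and 0.53.

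The deep day 30 cells differed from the shallower ones in the cell cycle. Over all day 30 cells, none of 16 measured cell cycle genes was called (median 0.25); with the deep cells, 12 of 26 were called higher and none lower. Top2a, the DNA topoisomerase of dividing cells, was at 17.6 CPM at day 7, 50.9 in the 94 deep day 30 cells and 6.59 in the other 337. Mki67, a proliferation marker, was at 31.1, 56.0 and 7.65 CPM, and Hells, a chromatin remodeller of S phase, at 17.2, 47.1 and 15.0. Few cells held most of these UMIs: the 10 highest of all day 30 cells had 73.1% for Top2a and 75.2% for Mki67. At day 7 the 10 highest had 43.5% and 66.7%. At least 1 UMI per 10000 of Top2a and Mki67 together were found in 32 day 7 cells (5.94%, 4.10 to 8.28), 13 deep day 30 cells (13.8%, 7.57 to 22.5) and 14 other day 30 cells (4.15%, 2.29 to 6.87). Since deep cells were chosen by their UMI total, the cell cycle values and the depth of the cells cannot be told apart here.

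**Figure D5:**
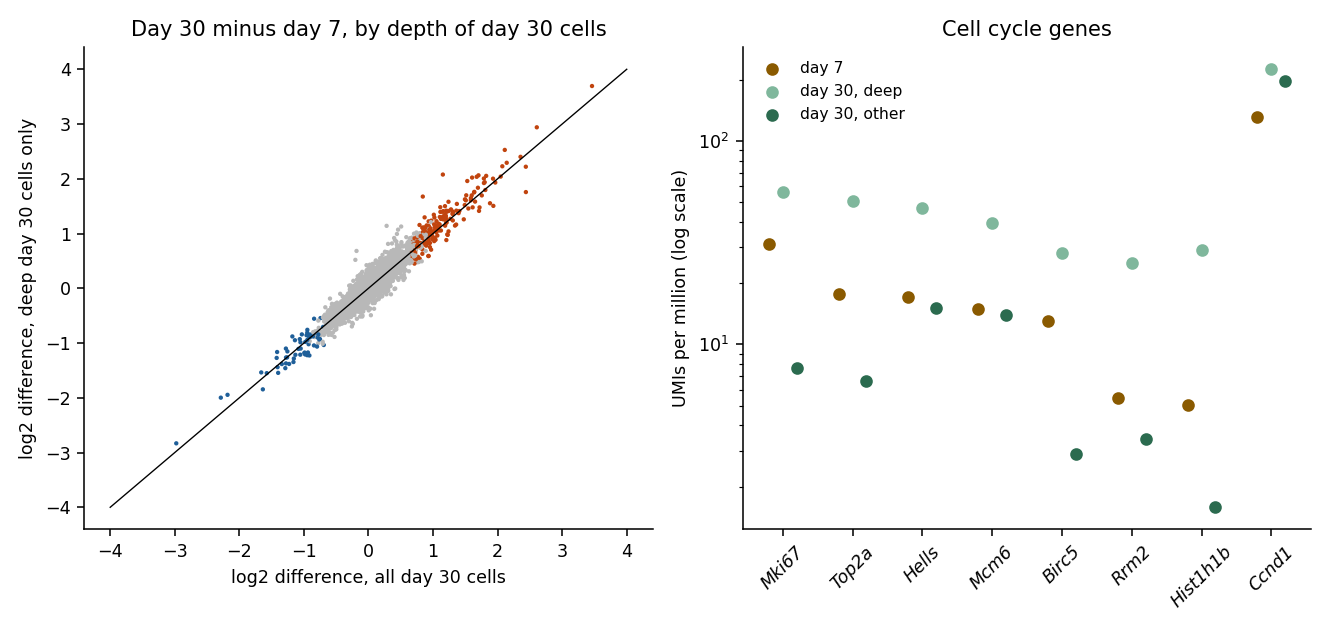
Left, log2 difference of each measured gene between day 30 and day 7 with all day 30 cells against that with the deep cells only, coloured by the call over all cells. Right, CPM (log scale) of 8 cell cycle genes at day 7, in the 94 deep day 30 cells and in the other 337; Top2a is at 50.9 in the deep and 6.59 in the other day 30 cells.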

How the data were processed

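The deposited files hold raw UMI counts per gene and barcode, made by the authors with Cell Ranger 7.0.1 on mm10, per the submitters' processing notes; the file headers give software version 3.0.1. Counts were read as deposited for 27998 gene rows, and no row names the reporter. Cells were gated as the report describes, their counts summed per library and scaled to CPM. No differential test was run, because each time point is 1 library. Ratios carry exact conditional 95% intervals and log2 differences use 10 CPM added to each level. Shares of cells holding a transcript were thinned to 5000 UMIs where the report says so; gate and cell cycle shares and numbers of cells holding a gene are at full depth. Doublets were kept in the main values; Scrublet called 10 of 1930 day 7 cells (0.518%) and 556 of 6946 day 30 cells (8.00%), of which 2 and 27 were members.

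The members and gene lists were chosen with earlier results of these data known. Genes named are the gate genes and Clu, the 12 largest differences in each direction called with all and with deep day 30 cells, up to 4 called members of each list and, where fewer than 2 were called, its 2 most abundant members, and marker genes of other cell types; other list members, and paralogs, were chosen for naming after their values were seen. A few genes that this rule selects are not reported here. Gene positions come from GENCODE M21. Analyses used Python 3.11.15, numpy 2.4.6, scipy 1.17.1 and pandas 2.3.3, and the ratio code was tested on simulated data. Alternatives varied the gates, depth, scaling, CPM minimum, doublets and free RNA.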

Additional observations from a re-analysis of the deposited data

How the results depend on the processing

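No paired analysis was possible because each time point is 1 library. The count of genes higher at day 30 was 921 without a CPM minimum, and that of genes lower at day 30 was 226, and with a minimum of 50 CPM 76 and 29, since the minimum sets how many genes are measured. A proximal tubule gate of 20 left 90 cells at day 7 and 42 at day 30, with 167 genes lower. Havcr1 alone as the injury gate left 442 and 51 cells, with 141 lower, and Vcam1 alone left 467 at day 7. An injury gate of 6 left 349 at day 30, and the depth floor 94. Subtracting 30% free RNA gave 116 lower. Cells without a Tyrobp, Fcer1g or Ctss UMI, a setting added after seeing the data, numbered 31 and 50 and gave 301 higher and 224 lower. The cause of these shifts was not tested. Of the 76 named genes that were called, 71 kept their direction and call without Scrublet doublets. All 76 did so without cells high in Tagln, Acta2, Rgs5 and Myh11 or in Umod, Slc12a1 and Klk1. Cells with few UMIs of these genes stayed in that setting, which was also added after seeing the data. Fewer calls were kept elsewhere: 50 with the proximal tubule gate of 20, 50 with Havcr1 alone and 59 with 30% free RNA subtracted. In cells without leukocyte gate UMIs 45 were kept, and with the minimum of 50 CPM 42. Reversed log2 differences were, with the proximal tubule gate of 20, Tm4sf1 -0.47, Cxcl5 0.51, Il1r1 -0.10, S100a8 0.35, S100a9 1.18 and Nupr1 0.12; with Havcr1 alone, Wfdc18 -1.17 and Tgfb2 -0.36; with free RNA subtracted, Lyz1 -0.15 at 10% and Klf2 -1.33 and H2-Aa -2.65 at 30%; and in cells without leukocyte gate UMIs, Ifit3 0.28 and Cdkn2a -0.84. At 30%, 12 named genes were at 0 in both libraries and gave no value. Between days 7 and 30, depth limits the day 30 side more. No minimum count was set for levels given as context, and the 2.06 CPM of Slc7a13 and of Ccl5 at day 2 rest on 1 UMI each.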
